A study of Mus musculus with 12 samples.

Results

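The elastic fibre genes described here were the 10 genes for elastin (Eln), fibrillin-1 and fibrillin-2 (Fbn1, Fbn2), the fibulins Fbln1, Fbln2 and Fbln5, the lysyl oxidases Lox and Loxl1, and the microfibril-associated proteins Mfap4 and Mfap5. They were taken by name from the 37991 gene identifiers in the count files, and each symbol matched 1 Ensembl identifier. The list was selected by gene function with the values of all 4 groups already known, so differences of these 10 genes are given as descriptions with their standard errors and without p-values. Cells were primary mouse embryonic fibroblasts (MEFs) of the FVB strain, isolated at embryonic day 13.5 and collected at passage 3. They were either wild-type or carried E2f1 3KR/3KR, a knock-in of the transcription factor E2F1 in which 3 lysines that can be acetylated are replaced by arginine. Each genotype was left untreated or exposed for 3 h to neocarzinostatin (NCS), an agent that breaks DNA as radiation does, at 250 ng/ml, with 3 samples in each of the 4 groups. The knock-in allele was made by a zinc finger nuclease and goes back to 1 founder mouse. The embryos came from crosses within each strain, and the labels do not say that wild-type and 3KR embryos were littermates or that the samples of a group came from separate embryos. The p-values given below for other genes therefore measure the spread between these samples, which may be technical. The lists of these other genes were also chosen with earlier results of these data known, and mostly genes with the lowest p are named. Their p-values are therefore descriptions too and not independent tests.

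Elastic fibres give skin, lung, arteries and other tissues the capacity to recoil. Fibroblasts and smooth muscle cells secrete tropoelastin, the soluble elastin monomer, which fibulins help to deposit on a scaffold of fibrillin microfibrils and which lysyl oxidases cross-link into an insoluble core. The microfibrils also hold latent TGF-beta, and fibrillin-2 is best known from embryonic tissue.

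The samples held 33203757 to 45279321 gene counts each, so that 3 counts, taken as the floor, correspond to 0.0663 to 0.0904 CPM, counts scaled to the library size. All 10 genes were far above this floor in every sample and passed the filter on low counts, which kept 15327 genes. Wild-type number 3 stood apart in both treatments, where a chi-square test against the fellow samples gave 7.39 to 9.19 per gene and every other pair of replicates 2.03 to 2.3. Xist, an RNA of the silenced X in female cells, reached 30590.1 to 35634.9 normalized counts in 3KR samples and 32.3 to 62.5 in wild-type samples. Y-linked Ddx3y had 7.0 to 16.2 in 3KR samples and 5370.3 to 5822 in wild-type samples. Genotype and sex of the cells cannot be told apart in any comparison of the genotypes below. E2f1 itself had means of 1146 ± 133 and 1121 ± 9.31 normalized counts (SD, n = 3) in untreated wild-type and untreated 3KR MEFs, a difference smaller than the spread between samples. Being a change of codons, the knock-in cannot be checked by this level.

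Positions were read from GENCODE release M21 (GRCm38), since the count files hold none. Eln (ENSMUSG00000029675) covers 44.73 kb of chromosome 5, minus strand, from 134702593 to 134747323. Fbn1 (ENSMUSG00000027204) covers 207.4 kb of chromosome 2, minus strand, from 125300594 to 125507993. Fbn2 (ENSMUSG00000024598) covers 201.9 kb of chromosome 18, minus strand, from 58008623 to 58210487. Lox (ENSMUSG00000024529) is on the same chromosome and strand, from 52516067 to 52529867. Loxl1 (ENSMUSG00000032334) is on chromosome 9, minus strand, from 58287738 to 58313186. Fbln1 (ENSMUSG00000006369) is on the plus strand of chromosome 15, from 85205949 to 85286535, and Fbln5 (ENSMUSG00000021186) on chromosome 12, minus strand, from 101746565 to 101819055. Fbln2 (ENSMUSG00000064080), from 91212455 to 91272540, and Mfap5 (ENSMUSG00000030116), from 122505845 to 122529290, are both on the plus strand of chromosome 6. Mfap4 (ENSMUSG00000042436), the shortest at 3.47 kb, is on the plus strand of chromosome 11, from 61485431 to 61488900. Mfap4 shares 89 exonic bases with Mapk7 on the opposite strand, 4.63% of its exonic length, and Fbn1 shares 2442 with Gm9913, or 20.1%. Gm9913 held 134 to 202 reads per sample and Mapk7 held 1344 to 2154. The libraries were stranded, but whether the counting used the strand is not given in the sources used here, so reads in the shared parts may have been assigned to either gene.

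The 10 genes together took 1.44% to 1.5% of all counted reads in every sample, with group means of 1.459% and 1.489% in untreated and NCS-treated wild-type MEFs and of 1.474% and 1.443% in untreated and NCS-treated 3KR MEFs. Most of it came from Lox, the enzyme that oxidizes lysines of tropoelastin and collagen, and Fbln2, a fibulin of basement membranes and elastic fibres. Per length of exon, Lox stood highest in untreated wild-type MEFs at 1312 ± 27.8 CPM per kb (SD, n = 3), followed by Fbln2 at 725 ± 19.4. Loxl1, the paralog of Lox that binds elastin, had 182 ± 8.23 CPM per kb, and Fbn1, the main microfibril protein after birth, had 124 ± 5.51. Fbln5, which tethers elastin to microfibrils and integrins, had 95.8 ± 1.98 CPM per kb. Mfap4 had 57.7 ± 1.75, Fbln1 had 38.5 ± 1.12 and Eln had 23.8 ± 1.19 CPM per kb. Mfap5 at 19.0 ± 0.80 and Fbn2 at 18.5 ± 1.27 CPM per kb closed the order, and these neighbours did not differ beyond their spread. In untreated 3KR MEFs Eln had 47.4 ± 0.95 CPM per kb and stood above Fbn2 at 34.5 ± 0.15, Fbln1 at 31.4 ± 0.20 and Mfap5 at 25.97 ± 1.17. The place of Eln depends on the length used, since dividing by its longest transcript instead of all its exons gives 49.9 CPM per kb in untreated wild-type MEFs.

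**Figure D1:**
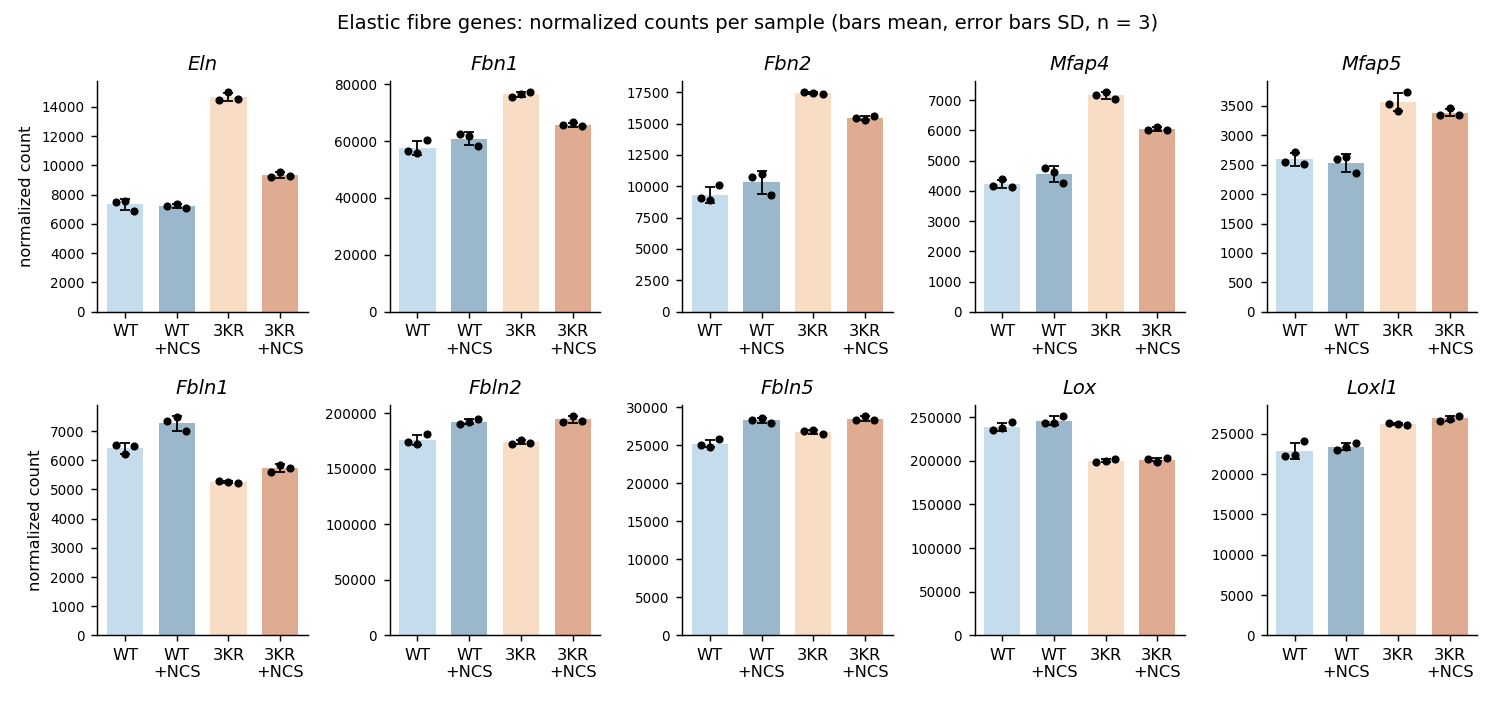
Normalized counts (linear axis from 0) of the 10 elastic fibre genes in the 3 samples of each group, with WT for wild-type. Bars show the mean, error bars the SD and points the samples. Eln, Fbn1, Fbn2 and Mfap4 are highest in untreated 3KR MEFs and lower after NCS in 3KR MEFs, while Lox and Fbln1 are lower in 3KR than in wild-type MEFs under both treatments.

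Untreated 3KR MEFs were first compared with untreated wild-type MEFs, which asks what the loss of E2F1 acetylation sites goes with in cells that were not damaged. Elastin, both fibrillins, Mfap4 and Mfap5 were higher in 3KR MEFs, whereas the most abundant cross-linking enzyme, Lox, and 1 fibulin, Fbln1, were lower. Of the 10 genes, 7 were higher and 2 lower past the threshold, an edgeR adjusted p under 0.05 over all 15327 genes, and Fbln2 was not past it. Over all tested genes, 22.1% were higher and 23.6% lower by the same rule, and the list was chosen with this comparison known. The median log2 fold change of the 10 genes was 0.298, against a median near 0 for all tested genes. In bulk samples such as these, fewer cells of a type and less RNA per cell cannot be told apart.

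Elastin showed the largest difference among the 10 genes. Eln had 7526, 7571 and 6902 normalized counts in the untreated wild-type samples and 14473, 15021 and 14547 in the untreated 3KR samples. Every 3KR sample was above every wild-type sample, and the means differed 2.002-fold (log2 fold change 0.995, SE 0.04). The share of all tested genes whose groups do not overlap was not counted, here or for the comparisons below.

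The fibrillins, whose polymers form the microfibrils, were both higher. Fbn2 had 9029, 8915 and 10067 normalized counts in untreated wild-type and 17511, 17440 and 17360 in untreated 3KR samples (log2 fold change 0.90, SE 0.05). Fbn1 had 56410, 55777 and 60388 in untreated wild-type and 75520, 76663 and 77084 in untreated 3KR samples (log2 fold change 0.40, SE 0.03). Neither gene had overlapping groups, and number 3 held the highest untreated wild-type value of both. Because Fbn2 differed more, its share of the 2 fibrillins, per length of exon, was 12.96% ± 0.27 (SD, n = 3) in wild-type and 17.32% ± 0.21 (SD, n = 3) in 3KR MEFs. Fbn1 and Fbn2 are close paralogs, and how reads that match both were counted is not given in the sources used here.

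The microfibril-associated proteins moved the same way. Mfap4, a fibrinogen-domain protein that binds elastin and fibrillin-1, had 4158, 4378 and 4141 normalized counts in untreated wild-type and 7189, 7258 and 7044 in untreated 3KR samples (log2 fold change 0.76, SE 0.04). Mfap5, a small glycoprotein bound to fibrillins, had 2541, 2720 and 2516 in untreated wild-type and 3540, 3421 and 3737 in untreated 3KR samples (log2 fold change 0.46, SE 0.04). The groups did not overlap for either gene.

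The lysyl oxidases moved in opposite directions. Lox had 234780, 237339 and 244313 normalized counts in untreated wild-type and 198896, 199552 and 201728 in untreated 3KR samples (log2 fold change -0.26, SE 0.02). Loxl1 had 22250, 22309 and 24040 in untreated wild-type and 26337, 26192 and 26100 in untreated 3KR samples (log2 fold change 0.19, SE 0.03). Per length of exon, Loxl1 made up 12.18% ± 0.26 (SD, n = 3) of the sum of both enzymes in wild-type and 15.96% ± 0.16 (SD, n = 3) in 3KR MEFs. The ratio of Lox to Eln, both in CPM per kb, was 55.33 ± 4.04 (SD, n = 3) in wild-type and 23.1 ± 0.52 (SD, n = 3) in 3KR MEFs, without overlap. This ratio sets the mRNA of an enzyme against that of its substrate and says nothing of either protein. Its size depends on the length used and is smaller with the longest transcripts. By these, untreated wild-type MEFs had 1322 CPM per kb of Lox and 49.9 of Eln, and untreated 3KR MEFs 1103 and 99.6.

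The fibulins differed among themselves. Fbln1, a fibulin found in elastic fibres and basement membranes, had 6537, 6202 and 6485 normalized counts in untreated wild-type and 5273, 5252 and 5209 in untreated 3KR samples (log2 fold change -0.30, SE 0.03). Fbln5 had 24813.3 to 25789.5 in wild-type and 26543 to 27061.7 in 3KR samples (log2 fold change 0.08, SE 0.03), and without untreated wild-type number 2 its value of 0.07 was no longer past the threshold. Fbln2 ranged from 172490 to 181169 in wild-type and from 172526 to 175883 in 3KR samples, which overlap almost wholly (log2 fold change -0.02, SE 0.02).

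Promoter sequences were read from RefSeq (GRCm38.p6) for 4 of the 10 genes, Fbn1, Fbln1, Fbln2 and Fbln5, in 6 windows of 250 bases before a transcription start. Eln, Fbn2, Lox, Loxl1, Mfap4 and Mfap5 are not in that table. The windows of Fbln5 and Fbln1 that lie before the first annotated exon are shown 5′ to 3′ because both fibulins rose with NCS in both genotypes while only Fbln1 of this pair was lower in 3KR MEFs. Capitals mark GGGCGG, its reverse complement CCGCCC, and CCAAT. The Fbln5 window is chr12:101819120-101819369 on the minus strand and the Fbln1 window is chr15:85205699-85205948 on the plus strand.
Fbln5: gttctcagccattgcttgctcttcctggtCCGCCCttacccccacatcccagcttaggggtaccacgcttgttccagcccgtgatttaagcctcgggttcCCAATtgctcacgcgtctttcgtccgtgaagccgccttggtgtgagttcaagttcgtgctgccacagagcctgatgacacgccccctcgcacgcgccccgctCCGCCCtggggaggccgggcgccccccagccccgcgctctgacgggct
Fbln1: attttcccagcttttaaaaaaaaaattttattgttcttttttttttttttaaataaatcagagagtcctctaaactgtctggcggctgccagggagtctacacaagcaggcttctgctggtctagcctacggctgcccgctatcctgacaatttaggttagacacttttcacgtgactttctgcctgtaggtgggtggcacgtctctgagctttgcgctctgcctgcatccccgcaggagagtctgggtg
The 4 words TTTCCCGC, TTTCGCGC, TTTGCCGC and TTTGGCGC, which are forms of the E2F binding motif, were searched on both strands and were found in 0 of the 6 windows and in 611 of all 32851 windows in the table (1.86%). Of these 32851 windows, 32.7% held GGGCGG, 33.8% held CCAAT and 12.4% held TATAAA. Among the 6 windows, GGGCGG occurred once in Fbn1, once in Fbln2, in 1 of the 2 windows of Fbln1 and in 1 of the 2 of Fbln5, CCAAT in the Fbln5 window shown, and TATAAA in none. A window without a word shows only that these letters are not in it.

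After NCS, the difference between genotypes was narrower for elastin, fibrillins and Mfap4 and of similar size for the lysyl oxidases and Fbln1. Of the 10 genes, 6 were higher and 2 lower in 3KR than in wild-type MEFs past the threshold, beside 22.9% higher and 23.6% lower of all tested genes. Fbln5 and Fbln2 were not past it. The median log2 fold change of the 10 genes was 0.157.

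Fbn2 then showed the largest difference, with 10728, 10991 and 9275 normalized counts in NCS-treated wild-type and 15459, 15254 and 15564 in NCS-treated 3KR samples (log2 fold change 0.58, SE 0.05). Eln had 7249, 7390 and 7095 in NCS-treated wild-type and 9237, 9564 and 9262 in NCS-treated 3KR samples (log2 fold change 0.37, SE 0.04). The means of Eln differed 1.291-fold, and its 3KR samples were still all above the wild-type samples. Mfap5 (log2 fold change 0.42, SE 0.05), Mfap4 (0.41, SE 0.04), Loxl1 (0.20, SE 0.03) and Fbn1 (0.11, SE 0.03) were also higher. Lox, at -0.29 (SE 0.02), and Fbln1, at -0.34 (SE 0.03), were lower. The ratio of Lox to Eln was 57.5 ± 2.29 (SD, n = 3) in wild-type and 36.5 ± 1.06 (SD, n = 3) in 3KR MEFs. Fbln2 had a log2 fold change of 0.02 (SE 0.02), which passed the threshold at 0.03 when both wild-type number 3 samples were left out.

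**Figure D2:**
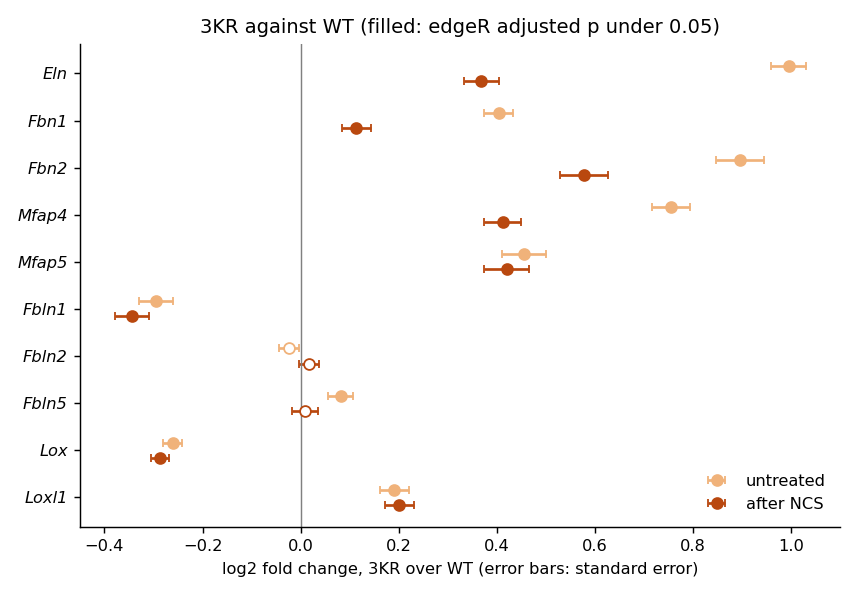
Log2 fold change of 3KR over wild-type (WT) MEFs for the 10 elastic fibre genes, untreated (light) and after NCS (dark), with standard errors from edgeR over 3 samples a group. Filled points are past the adjusted p of 0.05. Eln moves from 0.995 to 0.37, while Lox and Loxl1 hardly move.

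The response to NCS was then described in each genotype. In wild-type MEFs the 3 fibulins and Fbn2 rose slightly and Eln was not past the threshold. Of the 10 genes, 4 rose past the threshold, beside 14.3% of all tested genes, and 0 fell, beside 12.4%. With the sample number as a block, which treats untreated and treated samples of equal number as pairs, 7 rose and 0 fell. The added genes were Fbn1, Mfap4 and Lox. The 4 genes past the threshold without the block were Fbln1 (log2 fold change 0.18, SE 0.03), Fbln5 (0.16, SE 0.03), Fbn2 (0.14, SE 0.05) and Fbln2 (0.12, SE 0.02). The samples of Fbln1, Fbln2 and Fbln5 did not overlap between treatments, with 6992 to 7491 normalized counts of Fbln1 after NCS against 6202 to 6537 before. Those of Fbn2 did, because wild-type number 3 was the highest of the untreated and the lowest of the treated samples. Eln had a log2 fold change of -0.02 (SE 0.04) and Mfap5 of -0.04 (SE 0.05).

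Several calls of these small changes in wild-type MEFs depended on the samples and on the fit. Fbn2 was no longer past the threshold without wild-type number 1 or 2, untreated or treated, at values of 0.10 to 0.12, and was 0.27 without both number 3 samples. It was not past the threshold either when only the wild-type samples were fitted, at 0.13 (SE 0.06). Fbn1, at 0.08 (SE 0.03), passed the threshold without untreated number 3 (0.11) or treated number 3 (0.10), and was 0.14 without both. Mfap4, at 0.10 (SE 0.04), passed it without untreated number 2 (0.13) or treated number 3 (0.15). Lox, at 0.04 (SE 0.02), and Loxl1, at 0.03 (SE 0.03), passed it without untreated number 3, at 0.05 and 0.07. With all 12 samples, Fbn1 (0.08) and Mfap4 (0.10) also passed it with the size factors or the Wald test of DESeq2, and Fbn1 without the filter on low counts (0.07).

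In 3KR MEFs Eln, Mfap4 and both fibrillins fell after NCS, and the 3 fibulins rose. Of the 10 genes, 4 fell past the threshold, beside 15% of all tested genes, and 3 rose, beside 15.8%. Eln fell from 14680 ± 297 (SD, n = 3) to 9354 ± 182 (SD, n = 3) normalized counts, a drop of 36.28% (log2 fold change -0.65, SE 0.04). Mfap4 fell from 7164 ± 109 to 6045 ± 57.7 (SD, n = 3), by 15.62% (log2 fold change -0.24, SE 0.04). Fbn1 fell from 76422 ± 810 to 65797 ± 701 (SD, n = 3), by 13.9% (log2 fold change -0.21, SE 0.03), and Fbn2 from 17437 ± 75.6 to 15426 ± 158 (SD, n = 3), by 11.53% (log2 fold change -0.17, SE 0.05). None of these 4 genes had overlapping samples before and after NCS in 3KR MEFs, and the share of all tested genes of which this holds was not counted.

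The fibulins that rose in 3KR MEFs were Fbln2 (log2 fold change 0.16, SE 0.02), Fbln1 (0.13, SE 0.03) and Fbln5 (0.09, SE 0.03). Fbln5 was no longer past the threshold without untreated 3KR number 3 or treated 3KR number 2, at 0.08 in both cases. Mfap5, at -0.07 (SE 0.04), Loxl1, at 0.04 (SE 0.03), and Lox, at 0.01 (SE 0.02), were not past it. Mfap5 (-0.08) and Loxl1 (0.04) passed it when only the 3KR samples were fitted. Both also passed it, at the same values, when both wild-type number 3 samples were left out. These values are levels of mRNA and not rates of its synthesis or decay.

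**Figure D3:**
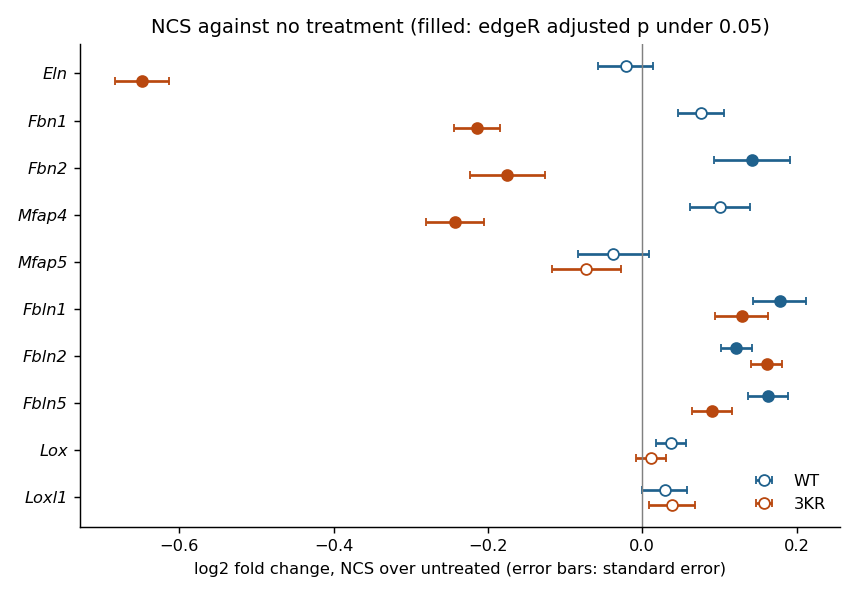
Log2 fold change of NCS over untreated for the 10 elastic fibre genes in wild-type (WT, blue) and 3KR (orange) MEFs, with standard errors from edgeR over 3 samples a group. Filled points are past the adjusted p of 0.05. Eln, Fbn1, Fbn2 and Mfap4 lie below 0 in 3KR MEFs, and the 3 fibulins lie above 0 in both genotypes.

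How far the NCS responses differed was fitted in the same model, as the change in 3KR MEFs minus the change in wild-type MEFs. Of the 10 genes, 4 had a lower response in 3KR MEFs past the threshold, beside 1.87% of all tested genes, and 0 a higher one, beside 1.86%. They were Eln, at -0.63 (SE 0.05), Mfap4, at -0.34 (SE 0.05), Fbn2, at -0.32 (SE 0.07), and Fbn1, at -0.29 (SE 0.04). Each alternative fit kept these 4 past the threshold, including that without both wild-type number 3 samples, in which they were -0.60, -0.38, -0.45 and -0.36. The other 6 genes had differences from -0.07 to 0.04, of which Fbln5 passed the threshold, at -0.10, only without both wild-type number 3 samples. The untreated 3KR samples enter both this value and the untreated difference between genotypes, so that a gene high in these samples appears in both.

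Fibroblast markers also differed between the genotypes. Of 10 fibroblast markers, 9 were higher and 1 lower in untreated 3KR MEFs, beside 22.1% higher and 23.6% lower of all tested genes. Their summed level was 42510 to 43930 CPM in untreated wild-type and 44210 to 45780 in NCS-treated wild-type samples. It was 49650 to 51430 in untreated 3KR and 49600 to 51710 in NCS-treated 3KR samples. The highest of them, Col1a1 and Col1a2, had log2 fold changes of 0.30 (SE 0.02) and 0.23 (SE 0.02) in untreated 3KR against wild-type MEFs. In the difference of responses, 4 of the 10 were lower, beside 1.87% of all tested genes, and 0 higher, beside 1.86%. The elastic fibre genes had the same numbers. These 4, named after their values were seen, were Lum (-0.37), Dcn (-0.28), Col3a1 (-0.21) and Pdgfra (-0.16).

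Markers of other cells differed too between the genotypes. Each count of markers below, for untreated 3KR against wild-type MEFs, stands beside 22.1% higher and 23.6% lower of all tested genes. Of 12 smooth muscle and pericyte markers, 3 were higher and 9 lower in untreated 3KR MEFs, with a summed level of 6380 to 6384 CPM against 7957 to 8242 in untreated wild-type MEFs, and of 6856 to 6944 against 7932 to 8363 after NCS. Acta2 and Tagln, the most abundant, had log2 fold changes of -0.25 (SE 0.02) and -0.41 (SE 0.04). Of 13 macrophage markers, 12 were higher, with sums of 238.4 to 242.8 CPM in untreated and 217.4 to 222.1 in NCS-treated 3KR samples against 121.8 to 141.8 and 132.4 to 151.6 in wild-type samples. Of 10 Schwann cell and neural crest markers, 7 were lower, with sums of 61.48 to 64.97 and 58.06 to 61.04 CPM against 258 to 265.5 and 256.3 to 269.1. Of 8 tested chondrocyte markers, 4 were higher and 2 lower, and the list summed to 437.1 to 455 and 442.6 to 465.2 CPM in 3KR against 689.4 to 693.7 and 687 to 745.2 in wild-type samples, with Snorc at 0 in every sample. Of 7 tested endothelial markers, 1 (Erg) was higher and 2 lower, the latter being Esam and Emcn (-2.44 both, named after their values were seen). The list summed to 29.64 to 32.37 and 19.87 to 20.92 CPM in 3KR against 15.55 to 15.92 and 14.84 to 16.46 in wild-type samples. Pecam1, Tie1 and Cldn5 did not pass the filter on low counts and had at most 9, 1 and 2 reads in any sample. Cdh5, Tek, Vwf and Kdr passed the filter, with at most 26, 56, 51 and 164 reads, and were not past the threshold. Of 5 tested epithelial markers, 3 were higher and 2 lower, with sums of 9.537 to 10.93 and 10.18 to 12.84 CPM in 3KR against 14.49 to 14.95 and 15.58 to 15.9 in wild-type samples.

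The sums of all these lists, the fibroblast list included, did not overlap between the genotypes under either treatment. A sum is weighted by its most abundant genes and need not hold for the other markers of its list. The chondrocyte, endothelial and epithelial sums mainly followed Col2a1, Erg and Krt19. These had means of 23517, 161 and 445 normalized counts in untreated wild-type MEFs and of 10085, 910 and 231 in untreated 3KR MEFs. No marker apart from Snorc was at 0 in all samples. Lyz2 and Csf1r (macrophage) had log2 fold changes of 0.68 and 1.30, Ngfr (Schwann cell) of -2.17, Col2a1 and Acan (chondrocyte) of -1.23 and 2.68, Erg and Kdr (endothelial) of 2.48 and 0.07, and Krt19 and Krt18 (epithelial) of -0.96 and -0.60 in untreated 3KR against wild-type MEFs. The other chondrocyte markers past the threshold were Comp (1.86), Hapln1 (1.18), Sox9 (0.38) and Col11a2 (-0.61), and the epithelial markers that were higher were Cdh1 (2.33), Krt8 (2.38) and Trp63 (1.63), all named after their values were seen. The part of the makeup of the cultures in the differences of the elastic fibre genes was not tested.

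The NCS response was also set beside the annotated genomic span of each gene. In 3KR MEFs, 22.9% of the tested genes over 100 kb fell past the threshold and 10.5% of those under 20 kb, and in wild-type MEFs 13.9% and 9.86%. The median log2 fold change of genes over 100 kb was 0.03 in wild-type and -0.03 in 3KR MEFs. Fbn1 and Fbn2, the only members over 100 kb, had 0.08 and 0.14 in wild-type and -0.21 and -0.17 in 3KR MEFs. Eln, at 44.73 kb, and Mfap4, at 3.47 kb, also fell in 3KR MEFs, and the 3 fibulins, at 60.09 to 80.59 kb, rose in both genotypes.

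**Figure D4:**
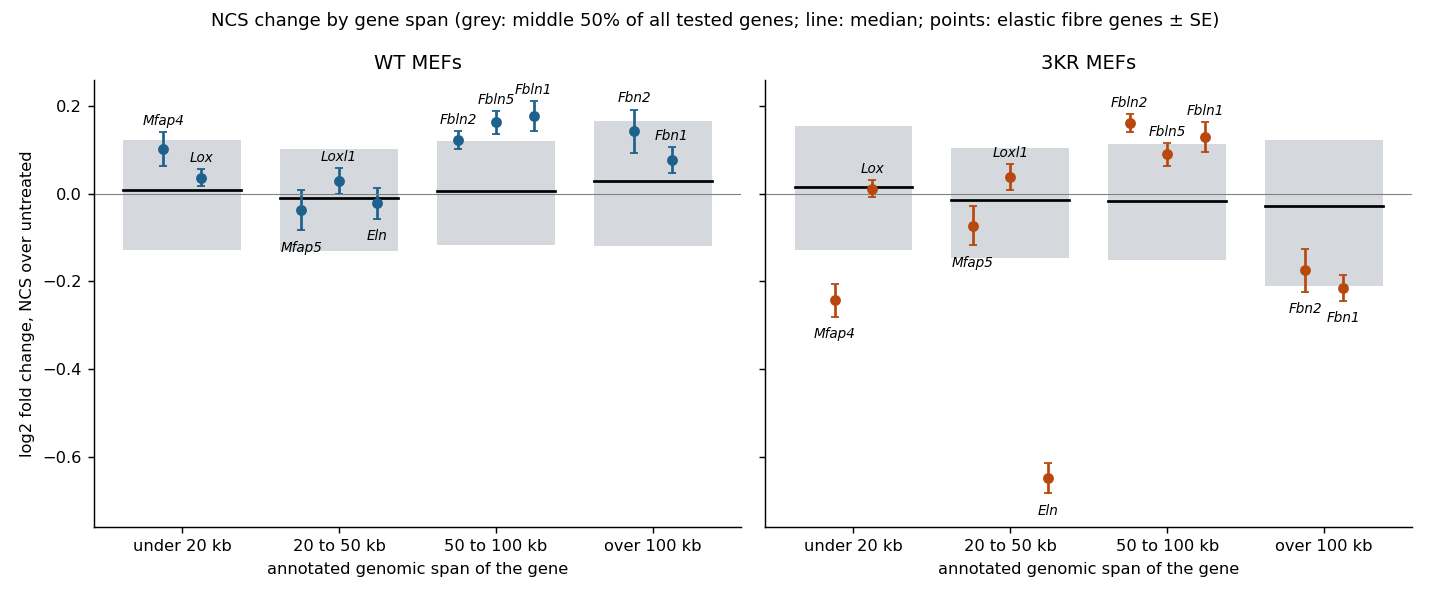
Log2 fold change of NCS over untreated by the annotated span of the gene, in wild-type (WT, left) and 3KR (right) MEFs. Grey boxes hold the middle 50% of all tested genes of a span class, black lines their median, and points with standard errors the 10 elastic fibre genes. In 3KR MEFs Eln and Mfap4 lie below the box of their class, and Fbn1 just below that of genes over 100 kb, while the 3 fibulins lie above the median of theirs.

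Other genes of the pathway were read from 6 lists by function, with 81 genes in all. Of these, 76 passed the filter on low counts and 5 (Mmrn1, Mmrn2, Mmp7, Elane and Itgb6) did not. They were divided in direction in untreated 3KR against wild-type MEFs, with 26 higher (34.2%, beside 22.1% of all tested genes), 32 lower (42.1%, beside 23.6%) and 18 not past the threshold, and a median log2 fold change of -0.036. After NCS, 22 were higher (28.9%, beside 22.9%), 35 lower (46.1%, beside 23.6%) and 19 not past it. NCS raised 29 (38.2%, beside 14.3% of all tested genes) and lowered 3 (3.95%, beside 12.4%) of the 76 in wild-type MEFs. In 3KR MEFs it raised 28 (36.8%, beside 15.8%) and lowered 11 (14.5%, beside 15%). The responses differed for 13, of which 6 were higher (7.89%, beside 1.86%) and 7 lower (9.21%, beside 1.87%) in 3KR MEFs.

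The other fibulins and lysyl oxidases, 8 genes, were divided between genotypes, with 3 higher and 3 lower in untreated 3KR MEFs. This count and that of each list below stand beside 22.1% higher and 23.6% lower of all tested genes. Efemp1, which encodes fibulin-3, was far lower in 3KR MEFs, with 985 ± 38.9 normalized counts (SD, n = 3) against 2873 ± 46.4 (log2 fold change -1.55, SE 0.05, edgeR adjusted p = 3.3e-17). Loxl2, a lysyl oxidase of collagens, was lower like Lox (-0.51, SE 0.02, edgeR adjusted p = 2.49e-14), and Loxl3 was higher like Loxl1 (0.43, SE 0.04, edgeR adjusted p = 8.87e-10). Hmcn1, which encodes the very large fibulin-family protein hemicentin-1, rose with NCS in wild-type MEFs (0.43, SE 0.09, edgeR adjusted p = 0.000839) and fell in 3KR MEFs (-0.41, SE 0.10, edgeR adjusted p = 0.00213). The difference of -0.84 (SE 0.13) had an edgeR adjusted p of 0.000365. Its paralog Hmcn2 rose by 0.82 in wild-type and by 0.84 in 3KR MEFs, from about 61 normalized counts (edgeR adjusted p = 0.00518 and 0.00433). The wild-type samples of Hmcn2 overlapped, with 51.4 to 66.2 before and 62.5 to 137.3 after NCS.

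Among 18 tested microfibril-associated genes, 7 were higher and 8 lower in untreated 3KR MEFs. Emilin2, a glycoprotein at the face between elastin and microfibrils, was higher (1.20, SE 0.04, edgeR adjusted p = 3.82e-17), as was Ltbp2, a fibrillin-binding relative of the latent TGF-beta binding proteins (0.44, SE 0.02, edgeR adjusted p = 6.05e-13). Fn1, for fibronectin, on which microfibrils assemble, was lower (-0.35, SE 0.02, edgeR adjusted p = 2.65e-12). Vcan, a large proteoglycan that binds fibrillin-1 and fibulins, rose with NCS in wild-type MEFs (0.37, SE 0.03, edgeR adjusted p = 1.74e-08) and had 0.03 (SE 0.03) in 3KR MEFs, where it was already higher before treatment. The difference in its response was -0.34 (SE 0.05, edgeR adjusted p = 0.000145). Ltbp4, which binds fibulin-5, rose by 0.17 in wild-type MEFs (SE 0.04, edgeR adjusted p = 0.00101). The metalloprotease gene Adamts6 and the latent TGF-beta binding protein gene Ltbp1 had a higher response in 3KR MEFs, by 0.34 and 0.19 (edgeR adjusted p = 0.00159 and 0.0155), and Fn1 a lower one, by -0.14 (edgeR adjusted p = 0.0117).

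The 14 genes of secretion and cross-linking showed small differences, with 5 higher and 4 lower in untreated 3KR MEFs. The response differed at the edgeR threshold for 0 of them, beside 1.86% higher and 1.87% lower of all tested genes. Bmp1, the protease that releases active Lox from its precursor, was lower (-0.29, SE 0.03, edgeR adjusted p = 2.99e-08). Its enhancer Pcolce (0.28, SE 0.04, edgeR adjusted p = 1.13e-06) and the proline-synthesis gene Aldh18a1 (0.28, SE 0.03, edgeR adjusted p = 3.4e-07) were higher. NCS lowered Aldh18a1 in wild-type MEFs (-0.29, SE 0.03, edgeR adjusted p = 9.21e-07) and raised Rin2, a regulator of endocytosis, by 0.16 (SE 0.03, edgeR adjusted p = 0.00104).

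Of 11 tested genes of elastin degradation, 4 were higher and 6 lower in untreated 3KR MEFs. Timp3, an inhibitor of metalloproteases that stays bound to the matrix, had 41112 ± 583 normalized counts (SD, n = 3) in 3KR against 84463 ± 2127 in wild-type MEFs (-1.04, SE 0.03, edgeR adjusted p = 5.07e-20). Ctsk, the elastolytic protease cathepsin K, was higher (1.26, SE 0.05, edgeR adjusted p = 1.53e-16), and Mmp2, a gelatinase that also cuts elastin, was lower (-0.74, SE 0.03, edgeR adjusted p = 1.61e-15). NCS raised Mmp2 by 0.27 and Ctsb by 0.16 in wild-type MEFs (SE 0.03 for both, edgeR adjusted p = 3.36e-07 and 0.000213).

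Of 10 tested receptor genes, 1 was higher and 6 lower in untreated 3KR MEFs. The subunits of the fibronectin receptor, Itga5 (-0.75, SE 0.03, edgeR adjusted p = 1.34e-16) and Itgb1 (-0.56, SE 0.02, edgeR adjusted p = 5.23e-16), were both lower, as was Itgb8 (-0.46, SE 0.07, edgeR adjusted p = 1.68e-05), whose integrin activates latent TGF-beta. Itgb8 fell with NCS in wild-type MEFs (-0.62, SE 0.08, edgeR adjusted p = 1.14e-06), while Itgb1 rose by 0.10 (SE 0.02, edgeR adjusted p = 0.000919). The responses differed for Itga5, by 0.20, and Itga8, by -0.30 (edgeR adjusted p = 0.00305 and 0.00819).

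The 15 TGF-beta genes were divided, with 6 higher and 5 lower in untreated 3KR MEFs. Postn, which encodes the matrix protein periostin, was higher (1.76, SE 0.02, edgeR adjusted p = 5.21e-25), as was the co-receptor gene Tgfbr3 (1.52, SE 0.06, edgeR adjusted p = 3.78e-16). Ccn2, a common target of TGF-beta, was lower (-1.002, SE 0.03, edgeR adjusted p = 8.43e-19). NCS raised the signal transducer Smad3 by 0.37 and its inhibitor Skil by 0.23 in wild-type MEFs (SE 0.03 and 0.04, edgeR adjusted p = 2.04e-08 and 0.000118). Tgfbr3 had a lower response in 3KR MEFs, by -0.71 (SE 0.08, edgeR adjusted p = 1.31e-05). Tgfbi (-0.20) and Postn (-0.19) also had a lower one, and Ccn2 (0.28) a higher one.

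**Figure D5:**
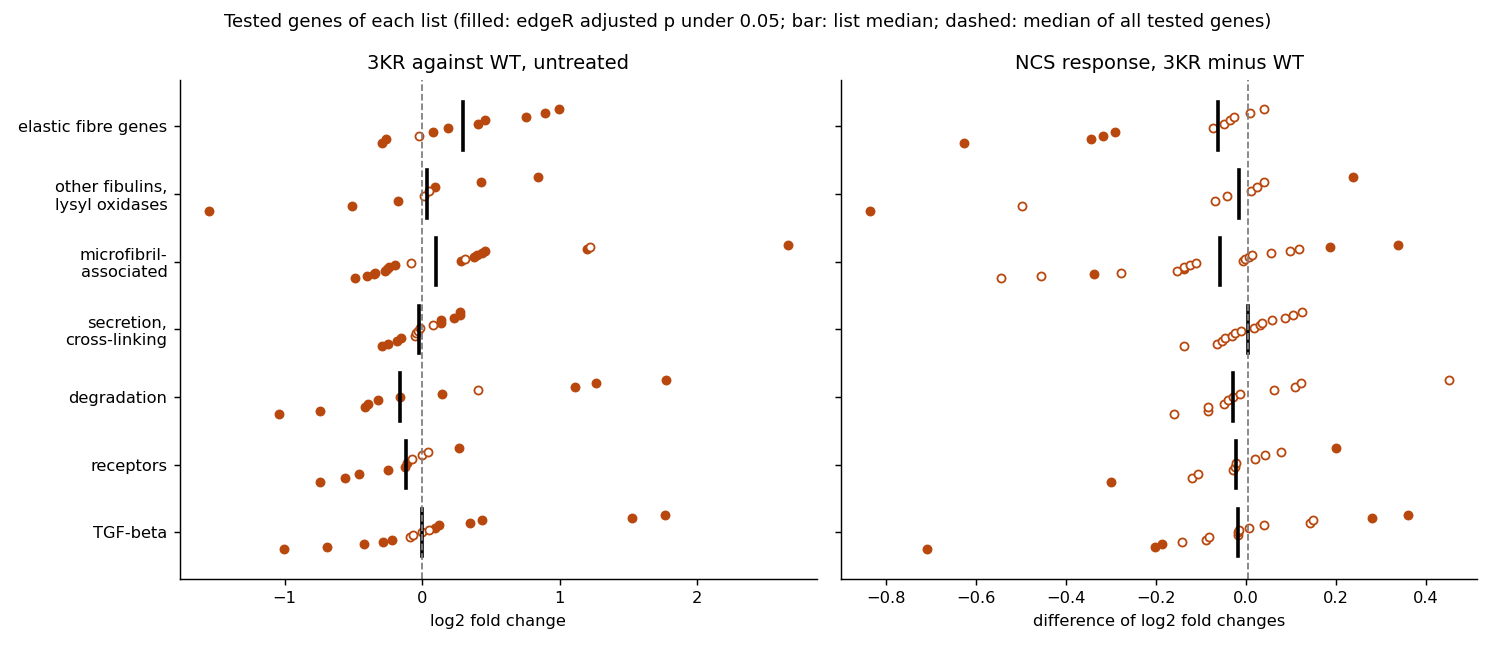
Log2 fold change of 3KR over wild-type (WT) MEFs without treatment (left) and difference in the NCS response, 3KR minus WT (right), for each tested gene of the elastic fibre list and of the 6 lists of related genes. Filled points are past the adjusted p of 0.05, bars are list medians and the dashed line is the median of all tested genes. The median of the 10 elastic fibre genes is 0.298 in the left panel, and that of each other list lies between -0.164 and 0.1.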

How the data were processed

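For each of the 12 samples the authors deposited raw read counts per Ensembl gene, neither normalized nor filtered. The submitters' processing notes name TopHat, HTSeq, DESeq and the mm9 build without roles or versions. Of 37991 identifiers, 32919 matched GENCODE M21 (GRCm38) and carried at least 99.4% of the counts. Groups were taken from the sample labels. Counts were tested in R 4.3.3 by edgeR 4.0.16, using its quasi-likelihood test (two-sided, TMM scaling, 1 coefficient per group, all 12 samples), after edgeR's filter on low counts. P-values were adjusted by the Benjamini-Hochberg method over 15327 genes, with a threshold of 0.05. Fold changes are from this fit, and the SE is the size of the log2 fold change divided by the square root of its F value. Normalized counts are counts divided by DESeq2 1.42.0 size factors, and CPM use TMM scaling. The common biological coefficient of variation was 3.95%. The edgeR fit was tested on simulated counts with the same spread for every gene and no outlying sample. That setting is simpler than these data, so the test does not show how the fit performs on them.

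Untreated and NCS-treated wild-type samples with equal numbers departed from their group means in parallel (correlations 0.323, 0.318 and 0.526 over 7985 genes). A fit with the label number as a block was therefore added. Each mean is of 3 samples, so an outlying number 3 alone also gives numbers 1 and 2 a positive correlation. The chi-square of wild-type 1 against 2 was 2.25 untreated and 2.23 after NCS, within the 2.03 to 2.3 of 3KR pairs. Pairing of numbers 1 and 2 is therefore not shown. In the fit with the replicate block, 7 of the 10 genes passed the threshold for NCS in wild-type MEFs. For NCS and for the difference of responses, the block paired samples within each genotype. For 3KR against wild-type it joined equal numbers of the 2 genotypes instead. Those samples did not deviate together (correlations -0.0557 to 0.0151).

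The members and the lists of related and marker genes were chosen with earlier results of these data known. The text names all 10 members, and from each related list the 3 genes with the lowest p between untreated genotypes, the 2 with the lowest p for NCS in wild-type MEFs, and those whose response differed, with a mean log2 CPM of at least 1, apart from the last. Results for some genes that this rule allows are left out. It adds the 2 most abundant markers of each cell type, Xist, Ddx3y and E2f1. Alternatives were DESeq2 size factors, the Wald test of DESeq2, no filter, a minimum of 10 counts per sample, the replicate block, a fit to the compared samples alone, each sample left out in turn and both wild-type number 3 samples left out. Normalized counts were also computed with TMM and with library totals, and levels per kb with the longest transcript.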

Additional observations from a re-analysis of the deposited data

Results flagged for a closer look

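The following genes are listed because the NCS response differed between the genotypes past the edgeR threshold. All values are the log2 change in 3KR MEFs minus that in wild-type MEFs. Among the elastic fibre genes these were Eln (-0.63), Mfap4 (-0.34), Fbn2 (-0.32) and Fbn1 (-0.29), beside 1.87% of all tested genes with a lower response. All 4 fell in 3KR MEFs past the threshold. In wild-type MEFs Fbn2 rose past it, and Eln, Mfap4 and Fbn1 were not past it. With the replicate block, which treats samples of equal number as pairs, Mfap4 (0.10) and Fbn1 (0.08) rose past it too.

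Among the related genes, a lower response in 3KR MEFs was measured for Hmcn1 (-0.84), Tgfbr3 (-0.71), Vcan (-0.34), Itga8 (-0.30), Tgfbi (-0.20), Postn (-0.19) and Fn1 (-0.14). A higher response in 3KR MEFs was measured for Adamts6 (0.34), Ccn2 (0.28), Loxl3 (0.24), Itga5 (0.20) and Ltbp1 (0.19). Tgfbr3, Hmcn1, Itga8 and Fn1 rose with NCS in wild-type MEFs and fell in 3KR MEFs, each past the threshold. The changes of Fn1 were small, at 0.08 (SE 0.02) and -0.06 (SE 0.02).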

How the results depend on the processing

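Of the 10 elastic fibre genes, 4 passed the threshold for NCS in wild-type MEFs. The number was 7 with the replicate block, 3 with only the samples compared, 8 without both wild-type number 3 samples and 3 to 7 when single samples were left out. Of the related genes, 32 passed it in the same comparison, 20 with only the samples compared and 21 to 45 with single samples left out. The responses of 13 related genes differed, 23 with the replicate block, 30 without both wild-type number 3 samples and 12 to 19 with single samples left out. The causes were not tested. The block changed no other number of calls by over 1.5 times. In 3KR MEFs same-numbered samples did not deviate together (correlations 0.0116 to 0.0785), so there the block pairs samples that share only a number. The same may hold for wild-type numbers 1 and 2.

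The other counts of calls stayed within 1.5 times, and no value changed direction past the threshold. Of the log2 fold changes of the 10 genes recomputed under the alternatives, 686 moved by less than the spread between samples and 14 by more. With other scalings 67 group means of normalized counts moved by less than the SD and 13 by more, and with the longest transcript 9 levels per kb moved by less and 31 by more. The 10 genes passed the filter on low counts, while 5 related genes were too low to be tested. A p that missed the threshold does not show equal levels.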
